A study of Mus musculus with 10 samples.

Results

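The genes described here are S100a10, which encodes the small protein p11, its binding partners Anxa2 and Ahnak, and 7 further S100 genes, S100a1, S100a4, S100a6, S100a8, S100a9, S100a13 and S100a16. They were found by gene symbol among the 22206 transcript clusters of the array, a transcript cluster being the set of probes that reports 1 gene. All 10 symbols were found, each in 1 cluster, so that 10 of 22206 clusters were followed. The genes were chosen with their difference between the lines known. That difference is therefore given below as a description, with its standard error and 95% interval but without a p-value.

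Hippocampal RNA was compared between 5 male DU6 mice and 5 male FztDU mice, with 1 mouse per Clariom S Mouse array. DU6 is an outbred line bred over many generations for high body mass, which the labels class as polygenic obesity, and FztDU is its non-selected outbred control line, classed as having physiological metabolism. The labels give an age at death of 21 to 22 weeks for all mice, none of which carried an engineered allele or received a treatment according to the labels. Both lines are outbred, so mice of 1 line are not genetically identical, and selection for body mass cannot be told apart from other changes that the lines gathered while they were bred apart. A younger age stands in one passage of the study's text, which was not used here.

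S100 proteins are small calcium-binding proteins that work as pairs of subunits and bind target proteins inside the cell, and some of them are released and act on receptors of other cells. p11 is unusual among them because it has lost the ability to bind calcium and instead stays bound to annexin A2, a protein that attaches to the inner face of the plasma membrane. The complex of p11 and annexin A2 also holds AHNAK, a very large scaffold protein, and brings receptors and channels, among them serotonin receptors, to the cell surface. In the hippocampus p11 is known from work on mood and on the response to antidepressants. S100A8 and S100A9 form calprotectin, an abundant protein of neutrophils that activates the receptors TLR4 and RAGE.

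All 9 markers of hippocampal neurons were called expressed in at least 1 line, with a mean log2 signal of 8.31 to 9.01 in DU6 arrays and 8.67 to 8.97 in FztDU arrays. Single markers differed in both directions, DU6 minus FztDU, with Spink8 at 1.06 ± 0.24 and Dsp at -0.72 ± 0.33 (SE). Of the 9, 2 had an unadjusted p under 0.05 (limma), against 5.86% of all clusters, and 0 an adjusted p under 0.05. Values are the deposited log2 signals, on which a difference of 1 is a 2-fold difference. They are not comparable between genes, since each gene has its own probes. Array medians lay between 5.47 and 5.52. Marker genes of other tissues and cells separated single arrays from the others. The mean of 10 choroid plexus markers, genes of the tissue that makes cerebrospinal fluid and lies next to the hippocampus, stood 2.10 and 2.05 above its mean over all arrays in DU6 replicates 1 and 5 and 1.65 above it in FztDU replicate 5, and between -1.20 and -0.10 from it in the other 7. The mean of 9 meningeal fibroblast markers was highest in DU6 replicates 1 and 5, at 0.72 and 0.56, and lowest in FztDU replicate 3, at -0.59. The mean of 5 cerebellar markers stood 5.37 above its overall mean in DU6 replicate 2 and below it in the other 9, and the mean of 9 markers of hippocampal neurons was lowest, at -0.49, in the same array. The mean of 8 neutrophil markers was highest there too, at 0.52 (2 of the 8, Camp and Ltf, were called expressed in neither line). Of the 8, only Ngp, Retnlg and Mmp8 were themselves highest in that array, and Mpo, at 3.41, had its lowest DU6 value there. Of 4 red-cell genes listed, only Alas2 had a cluster of its own, and it stood at 6.50 there against 5.17 to 5.71 elsewhere. The part of these other tissues in the results was not tested. In bulk tissue, fewer cells of a type and less RNA per cell cannot be told apart.

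Of the 10 genes, 8 had the higher mean in DU6 hippocampus and 2, Ahnak and S100a1, the lower mean. The median difference, DU6 minus FztDU, was 0.20 for the 10 genes and 0.002 for all clusters. All 5 DU6 arrays lay above all 5 FztDU arrays for 2 of the genes, S100a10 and Anxa2, and for 0.513% of all clusters, and the lines overlapped for the other 8. None of the 10 lay fully below. Lines did not overlap in either direction for 1.22% of all clusters. By limma, 0 of the 10 genes reached both an adjusted p under 0.05 and a fold change over 2, against 0.113% of all clusters, and 1, S100a10, reached the adjusted p alone, against 0.162% of all clusters, or 0.0360% with the higher level in DU6. S100a10 kept that adjusted p in only 1 of the 10 fits with 1 array left out, the one without FztDU replicate 3. Since the genes were chosen by this contrast, these counts are a description only. The 95% interval of the difference left out 0 for 4 of the 10, namely S100a10, Anxa2 and S100a9, which were higher in DU6, and S100a1, which was lower. Such an interval answers to an unadjusted p under 0.05, which 5.86% of all clusters reached (2.70% with the higher and 3.17% with the lower mean in DU6).

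**Figure D1:**
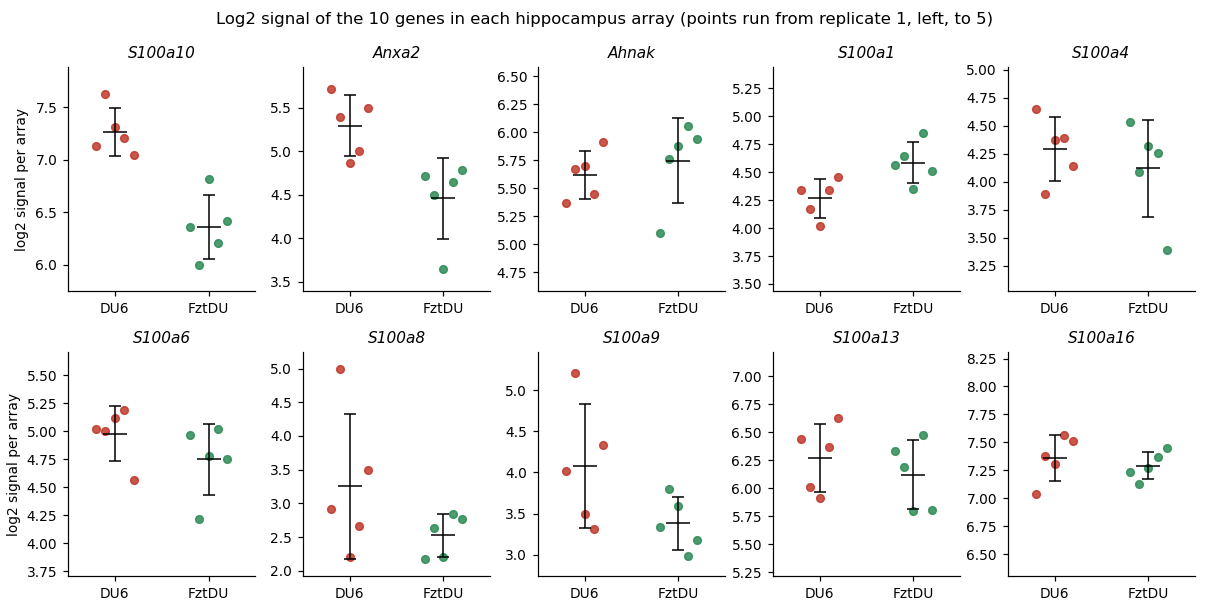
Log2 signal (vertical axis) of the 10 genes in each array, DU6 in red and FztDU in green, 5 arrays each; points run from replicate 1 on the left to replicate 5, and bars give mean ± SD. S100a10 and Anxa2 are the panels without overlap between the lines, and the highest S100a8 and S100a9 points are DU6 replicate 2.

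S100a10, whose product p11 takes membrane proteins to the cell surface, had log2 signals of 7.13, 7.63, 7.31, 7.21 and 7.05 in the 5 DU6 arrays, against 6.36, 6.0, 6.82, 6.21 and 6.42 in the 5 FztDU arrays. No value of the FztDU line reached the lowest DU6 value, and the closest pair, DU6 replicate 5 and FztDU replicate 3, differed by less than the range within either line. The mean was 7.27 ± 0.23 in DU6 and 6.36 ± 0.30 in FztDU (SD, n = 5 each), a difference of 0.90 ± 0.15 (SE, 95% interval 0.57 to 1.24) or 1.87-fold. Only 0.230% of all clusters had a larger difference in favour of DU6. The difference lay between 0.81 and 1.02 when each array was left out in turn, was 1.04 on the 7 arrays without high choroid plexus genes and was 0.91 on the 6 arrays that also lack DU6 replicate 2. The 7 arrays are 3 of DU6 and 4 of FztDU, and the 6 are 2 of DU6 and 4 of FztDU. Lines that do not overlap on all 10 arrays cannot overlap in either set.

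Anxa2 encodes the partner that holds p11 at the membrane. Its log2 signals were 5.71, 5.39, 4.86, 5.0 and 5.50 in DU6, against 4.71, 4.50, 3.64, 4.65 and 4.78 in FztDU. Again no FztDU array reached a DU6 array, but DU6 replicate 3, at 4.86, and FztDU replicate 5, at 4.78, lay close together, and FztDU replicate 3 lay well below the other FztDU arrays. The mean was 5.29 ± 0.35 in DU6 and 4.46 ± 0.47 in FztDU (SD, n = 5 each), a difference of 0.84 ± 0.22 (SE, 95% interval 0.35 to 1.32) or 1.79-fold. The difference was 0.63 without FztDU replicate 3. The highest DU6 and the highest FztDU array were ones with high choroid plexus genes, and the difference was 0.71 (95% interval 0.13 to 1.28) on the 7 arrays without them and 0.56 (95% interval -0.08 to 1.19) on the 6 arrays that also lack DU6 replicate 2. Anxa2 was also highest and lowest in the arrays where meningeal fibroblast markers were, DU6 replicate 1 and FztDU replicate 3. The median difference was 0.26 for these 9 markers, 0 of which reached an adjusted p under 0.05, and 0.17 for 8 markers of endothelium and mural cells, and their part in the difference of Anxa2 was not tested.

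The promoter of Anxa2 is shown because Anxa2 and S100a10 were the genes without overlap between the lines, and no sequence of S100a10 was at hand. The RefSeq sequence of the 250 bases before the start of Anxa2 (GRCm38.p6, chr9:69453433-69453682, plus strand) is given 5′ to 3′, with capitals for a TATA box (TATAAA), GC boxes (GGGCGG) and an AP-1 site (TGANTCA), searched on both strands.
Anxa2: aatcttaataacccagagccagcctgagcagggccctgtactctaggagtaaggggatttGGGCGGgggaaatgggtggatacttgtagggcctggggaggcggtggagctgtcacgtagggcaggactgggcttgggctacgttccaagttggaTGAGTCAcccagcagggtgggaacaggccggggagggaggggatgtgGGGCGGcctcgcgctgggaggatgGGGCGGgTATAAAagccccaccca
It held 1 TATA box, which began 17 bases before the start, 3 GC boxes and 1 AP-1 site, 95 bases before the start. Among 32851 mouse promoter windows of the same length, 12.4% held a TATA box, 32.7% a GC box and 6.75% an AP-1 site, and these motifs do not share letters in the Anxa2 window. Sequences were matched for 9 of the 10 genes, in 10 windows. A match of letters does not show that a factor binds there.

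Ahnak encodes the scaffold that joins p11 and annexin A2 to the actin skeleton. It did not follow them: its log2 signals were 5.37, 5.67, 5.70, 5.45 and 5.91 in DU6, against 5.10, 5.76, 5.88, 6.06 and 5.94 in FztDU. The lines overlapped over most of their range, with the lowest value of all in FztDU replicate 1. The difference was -0.13 ± 0.17 (SE, 95% interval -0.50 to 0.25), and -0.29 ± 0.13 without FztDU replicate 1. The Ahnak cluster is shared with the microRNA gene Mir6367, so its signal cannot be given to Ahnak alone.

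Deviations of single arrays from the mean of their line do not use the difference between the lines, and 7 pairs of genes known as partners or neighbours were compared on them (10 arrays, Pearson's r with an exact two-sided permutation test over all rearrangements within lines, Benjamini-Hochberg adjustment over the 7 pairs). S100a10 and Anxa2 gave r = -0.53 (exact permutation p = 0.166, adjusted p = 0.388) and Spearman's rho = -0.27 (exact permutation p = 0.477, adjusted p = 1). The sign was negative and the relation did not pass the test. Without FztDU replicate 3 and DU6 replicate 2, the arrays farthest from the median of S100a10, r was -0.17. FztDU replicate 3 held the highest S100a10 and the lowest Anxa2 of its line, and without this array alone r was -0.01. The pairs S100a10 and Ahnak (r = 0.04, rho = -0.01), Anxa2 and Ahnak (r = -0.17, rho = -0.13), S100a6 and Anxa2 (r = -0.14, rho = -0.03) and S100a4 and Anxa2 (r = -0.21, rho = 0.02) had adjusted exact permutation p-values of 0.838 to 0.926 for r and of 1 for rho.

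Of 18 genes whose products bind p11 or act with the complex of p11 and annexin A2, 18 were measured and 0 were called, either at an adjusted p under 0.05 with the fold threshold or at the adjusted p alone. Their differences ran from -0.45 to 0.30, with a median of 0.02. The smallest p-values were those of Htr4, Ctsb and Htr1d. Htr4, a serotonin receptor that p11 brings to the cell surface, had log2 signals of 6.70, 6.37, 6.62, 6.83 and 6.80 in DU6, against 7.49, 7.11, 6.98, 7.34 and 6.66 in FztDU. Only FztDU replicate 5 fell within the DU6 values. The difference was -0.45 ± 0.15 (SE), with an adjusted p of 0.642 (limma), and it was the 1 gene of the list with an unadjusted p under 0.05, against 5.86% of all clusters. Ctsb, a lysosomal protease that also binds the complex at the cell surface, differed by 0.20 ± 0.10 (adjusted p = 0.889), and Htr1d, another serotonin receptor, by 0.24 ± 0.14 (adjusted p = 0.958). The serotonin receptor Htr1b, the first one found to bind p11, had a difference of 0.30 ± 0.31 (adjusted p = 0.992), with a low value of 5.65 in FztDU replicate 4. Plat and Plg, which encode tissue plasminogen activator and plasminogen, had differences of 0.15 ± 0.14 and 0.24 ± 0.20 (adjusted p = 0.992 and 0.983). Without DU6 replicate 2 the difference of Plat was 0.02, and on the 6 arrays that of Plg was -0.15.

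S100a8 and S100a9 encode the subunits of calprotectin. Their promoters are shown because they are close neighbours that were high in the same array. The 250 bases before each start (RefSeq, GRCm38.p6; S100a8, chr3:90668821-90669070, plus strand; S100a9, chr3:90695722-90695971, minus strand) are given 5′ to 3′ with the same motifs in capitals.
S100a8: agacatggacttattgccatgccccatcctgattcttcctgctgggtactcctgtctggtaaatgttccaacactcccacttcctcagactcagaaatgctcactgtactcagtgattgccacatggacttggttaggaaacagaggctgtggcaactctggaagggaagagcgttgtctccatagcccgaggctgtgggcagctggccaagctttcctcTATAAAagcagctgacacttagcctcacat
S100a9: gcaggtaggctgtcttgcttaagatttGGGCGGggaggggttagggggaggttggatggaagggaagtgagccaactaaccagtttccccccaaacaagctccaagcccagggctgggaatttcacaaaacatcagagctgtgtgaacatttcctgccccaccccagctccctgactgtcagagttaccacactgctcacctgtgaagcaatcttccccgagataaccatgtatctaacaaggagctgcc
The S100a8 window held a TATA box that began 30 bases before the start, and the S100a9 window a GC box that began 223 bases before the start. Neither window held the other motifs searched.

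The log2 signals of S100a8 were 2.92, 4.99, 2.20, 2.67 and 3.49 in DU6, against 2.17, 2.64, 2.20, 2.84 and 2.77 in FztDU. DU6 replicate 2 was far above all other arrays, and DU6 replicates 3 and 4 lay within the FztDU values. The authors' table called S100a8 expressed in DU6 and not in FztDU. The mean was 3.25 ± 1.08 in DU6 and 2.52 ± 0.32 in FztDU (SD, n = 5 each), a difference of 0.73 ± 0.41 (SE, 95% interval -0.16 to 1.62).

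S100a9 had log2 signals of 4.02, 5.21, 3.50, 3.31 and 4.34 in DU6, against 3.34, 3.80, 3.59, 2.99 and 3.18 in FztDU. DU6 replicates 1, 2 and 5 lay above all FztDU arrays and the other 2 among them. The mean was 4.08 ± 0.75 in DU6 and 3.38 ± 0.32 in FztDU (SD, n = 5 each), a difference of 0.70 ± 0.30 (SE, 95% interval 0.04 to 1.35). Both genes depended on DU6 replicate 2, the array with high cerebellar markers, the highest mean of neutrophil markers and the highest Alas2. Without it, the difference was 0.30 ± 0.23 (95% interval -0.22 to 0.81) for S100a8 and 0.41 ± 0.22 (95% interval -0.07 to 0.89) for S100a9. On the 6 arrays without high choroid plexus or cerebellar genes, it was -0.03 for both S100a8 (95% interval -0.54 to 0.49) and S100a9 (95% interval -0.52 to 0.47). Of the DU6 line, those 6 keep only replicates 3 and 4, which held its lowest values of both genes.

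Of 16 genes that encode receptors of calprotectin or mark neutrophils and other myeloid cells, 16 were measured and 0 were called at an adjusted p under 0.05, with or without the fold threshold. Their differences ran from 0.04 to 1.49, with a median of 0.18, and 3 genes had an unadjusted p under 0.05, all with the higher mean in DU6, as had 2.70% of all clusters. Retnlg, a resistin-like gene of neutrophils, had log2 signals of 3.37, 4.76, 3.15, 2.71 and 3.65 in DU6, against 2.68, 2.93, 2.62, 2.43 and 2.28 in FztDU. The lines overlapped only through DU6 replicate 4, and the difference of 0.94 ± 0.30 had an adjusted p of 0.557 (limma). Lcn2, which encodes the iron-scavenging protein lipocalin 2, had log2 signals of 4.21, 5.42, 3.66, 3.48 and 6.82 in DU6, against 3.17, 3.18, 3.52, 3.57 and 2.68 in FztDU. Here DU6 replicate 5 was highest and DU6 replicate 2 next, and the difference of 1.49 ± 0.52 had an adjusted p of 0.657. Ngp, a neutrophil granule gene, differed by 0.72 ± 0.33 (adjusted p = 0.849) and was highest, at 4.87, in DU6 replicate 2. Like S100a8, Retnlg and Ngp were called expressed in DU6 and not in FztDU by the authors' table. The calprotectin receptors Tlr4 and Ager differed by 0.09 ± 0.20 and 0.31 ± 0.19 (adjusted p = 0.994 and 0.967).

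Without DU6 replicate 2, the differences were 0.63 ± 0.18 for Retnlg, 1.32 ± 0.55 for Lcn2 and 0.40 ± 0.23 for Ngp (adjusted p = 0.402, 0.726 and 0.850). All 16 genes still had the higher mean in DU6. No share over all clusters was taken for this count, and the list was chosen with earlier results of these data known. The count is therefore a description only. On the 6 arrays without high choroid plexus or cerebellar genes, 11 of the 16 had the higher mean in DU6, and the list's median difference was 0.04. On the 7 arrays without high choroid plexus genes, which keep DU6 replicate 2, the differences were 0.82 for S100a8, 0.58 for S100a9, 0.88 for Retnlg, 0.83 for Lcn2 and 0.54 for Ngp. FztDU replicate 5, which also had high choroid plexus markers, held the lowest Retnlg, Lcn2 and Ngp of all arrays, at 2.28, 2.68 and 2.33, and the lowest mean of the neutrophil markers, at -0.51. All neutrophil markers, Retnlg and Ngp among them, are also in the list of 16 genes, so their mean is not separate evidence. What part those tissues or blood had in the difference was not tested.

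**Figure D2:**
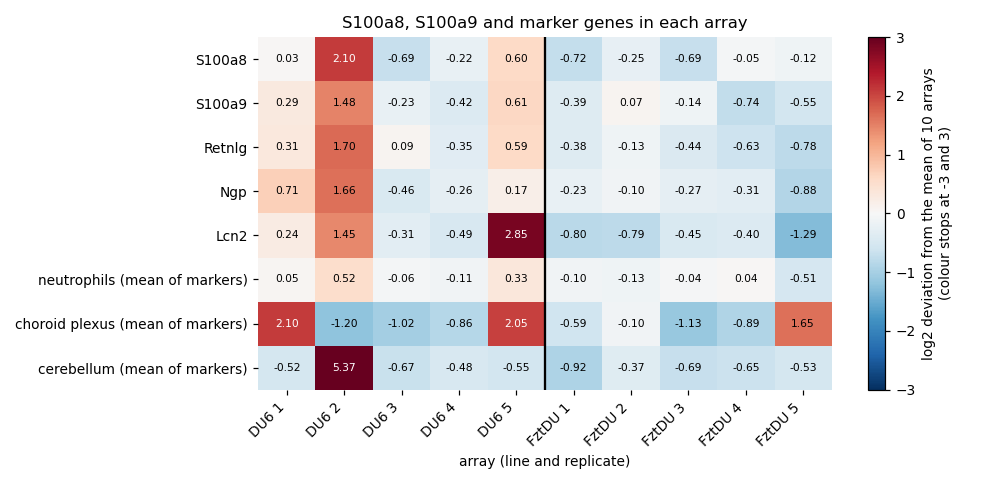
Log2 deviation from the mean of the 10 arrays (colour and printed value) for S100a8, S100a9, 3 myeloid genes and 3 marker lists (rows), in each array (columns, DU6 left of the line and FztDU right). DU6 replicate 2 is highest for S100a8, S100a9, Retnlg and Ngp and for the cerebellar list, at 5.37, and DU6 replicate 5 is highest for Lcn2. The neutrophil list includes Retnlg and Ngp.

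Within lines, S100a8 and S100a9 gave r = 0.79 (exact permutation p = 0.0442, adjusted p = 0.155) and rho = 0.53 (exact permutation p = 0.175, adjusted p = 0.611). The relation did not pass the adjusted test and rested on few arrays, since r was 0.26 without DU6 replicates 2 and 3. It was 0.96 over the DU6 arrays and -0.43 over the FztDU arrays, where S100a8 was called not expressed.

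S100a1 and S100a13 are head-to-head neighbours. S100a1 encodes a regulator of calcium release best known from heart muscle, and S100A13 takes part in the release of growth factors that lack a signal peptide. The RefSeq starts of S100a1, on the minus strand, and S100a13, on the plus strand, enclose 104 bases (GRCm38.p6, chr3:90514331-90514434). This stretch is shown on the plus strand, with the 3 CG pairs in capitals, because the signals of these genes moved together.
S100a1 and S100a13: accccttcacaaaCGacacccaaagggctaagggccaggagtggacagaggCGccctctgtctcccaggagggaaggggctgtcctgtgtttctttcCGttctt
The promoter windows of the pair, which overlap over this stretch, held none of the motifs searched, including CCAAT, which 33.8% of all windows held.

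The log2 signals of S100a1 were 4.34, 4.17, 4.02, 4.34 and 4.46 in DU6, against 4.56, 4.64, 4.35, 4.85 and 4.51 in FztDU. The lines overlapped through FztDU replicate 3 and DU6 replicate 5, and the other 4 FztDU arrays lay above all DU6 arrays. The mean was 4.27 ± 0.17 in DU6 and 4.58 ± 0.18 in FztDU (SD, n = 5 each), a difference of -0.32 ± 0.12 (SE, 95% interval -0.57 to -0.06), and it lay between -0.37 and -0.25 when each array was left out in turn. S100a13 had log2 signals of 6.44, 6.01, 5.91, 6.37 and 6.63 in DU6, against 6.33, 6.19, 5.80, 6.48 and 5.81 in FztDU. Here the lines covered nearly the same range, with a difference of 0.15 ± 0.17 (SE, 95% interval -0.22 to 0.52).

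The sign of the S100a13 difference depended on the arrays, and it was -0.10 on the 7 arrays without high choroid plexus genes and -0.06 on the 6 that also lack DU6 replicate 2, against -0.42 for S100a1 in both sets. The deviations of these neighbours within lines rose and fell together. They gave r = 0.91 (exact permutation p = 0.000417, adjusted p = 0.00292) and rho = 0.91 (exact permutation p = 0.000556, adjusted p = 0.00389) over the 10 arrays, which was the only one of the 7 pairs to pass at an adjusted p under 0.05. Without DU6 replicate 3 and FztDU replicate 3, the arrays farthest from the median of S100a1, r was 0.86. It was 0.98 over the DU6 arrays and 0.85 over the FztDU arrays, so it held in each line. Both genes were low in replicate 3 of each line and high in DU6 replicate 5 and FztDU replicate 4. The replicate numbers carry no order.

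**Figure D3:**
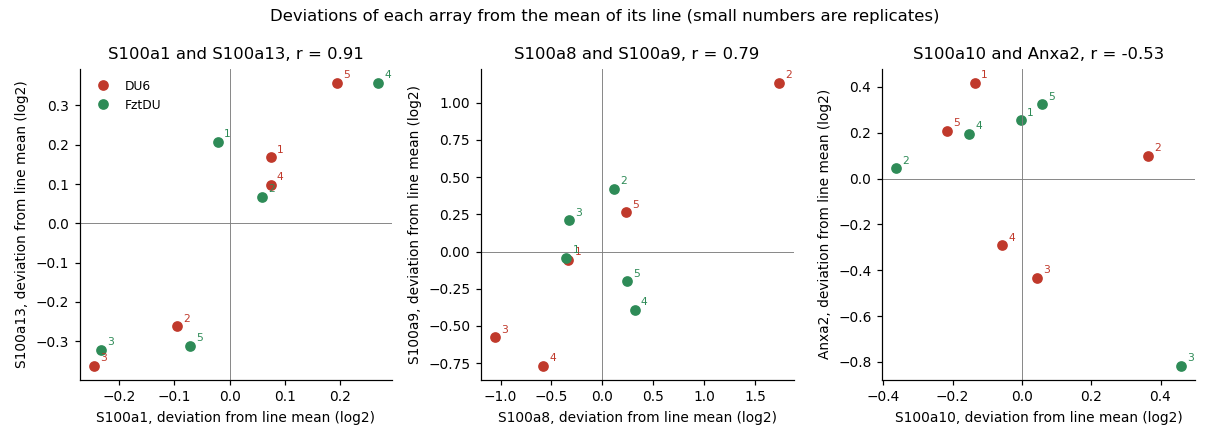
Deviation of each array from the mean of its line (log2, both axes) for 3 pairs of genes, DU6 in red and FztDU in green, with replicate numbers beside the points. S100a1 and S100a13 lie along a line (r = 0.91), the r of S100a8 and S100a9 (0.79) leans on DU6 replicate 2, and S100a10 and Anxa2 (r = -0.53) do not rise together.

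The remaining S100 genes of the set did not stand apart between the lines. S100a4, known for its role in cell motility, had log2 signals of 3.89 to 4.65 in DU6 and 3.39 to 4.53 in FztDU, with a difference of 0.17 ± 0.20 (SE, 95% interval -0.27 to 0.61). Its lowest value was FztDU replicate 5, and without that array the difference was -0.01, as it was -0.08 on the 7 arrays without high choroid plexus genes. S100a6, or calcyclin, which also binds annexin A2, ran from 4.56 to 5.19 in DU6 and from 4.22 to 5.02 in FztDU, with a difference of 0.23 ± 0.16 (95% interval -0.12 to 0.58). S100a16, a broadly expressed member of the family, ran from 7.04 to 7.57 in DU6 and from 7.13 to 7.45 in FztDU, with a difference of 0.07 ± 0.11 (95% interval -0.18 to 0.32). For these 3 genes, each line held arrays above and below the mean of the other line.

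Of a list of 9 other S100 genes, 8 were measured and 0 were called by either rule. Their differences ran from -0.35 to 0.19, with a median of 0.05, and 1 gene, S100a11, had an unadjusted p under 0.05, against 5.86% of all clusters. S100a2, which the list did not hold, differed by 0.01 (adjusted p = 0.996). S100a11, whose product pairs with annexin A1, had log2 signals of 6.27, 6.11, 5.69, 5.95 and 6.31 in DU6, against 6.40, 6.27, 6.02, 6.73 and 6.68 in FztDU. The lines overlapped, with 3 FztDU arrays above all DU6 arrays, and the difference of -0.35 ± 0.16 had an adjusted p of 0.842 (limma). S100b, the main S100 gene of astrocytes, differed by 0.19 ± 0.16 (adjusted p = 0.983) and S100a5, known from olfactory neurons, by 0.17 ± 0.12 (adjusted p = 0.980). Without DU6 replicate 2 the difference of S100b was 0.03, and on the 6 arrays that of S100a5 was -0.06.

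All 11 other annexin genes were measured and 0 were called by either rule, nor did any have an unadjusted p under 0.05 on the 10 arrays. Their differences ran from -0.21 to 0.39, with a median of 0.00. The difference of Anxa2 was larger, but Anxa2 was chosen with its difference known, so this rank is a description only. Anxa5, which binds phosphatidylserine on dying cells, had log2 signals of 8.26, 8.74, 8.11, 8.11 and 8.42 in DU6, against 7.74, 8.08, 7.75, 7.60 and 8.53 in FztDU. Of the FztDU arrays, only replicate 5 reached the DU6 values. The difference was 0.39 ± 0.18 (adjusted p = 0.858). Anxa6 differed by -0.19 ± 0.09 (adjusted p = 0.871) and Anxa8 by 0.16 ± 0.10 (adjusted p = 0.980). On the 7 arrays without high choroid plexus genes, 2 annexin genes had an unadjusted p under 0.05, Anxa5 with a difference of 0.53 ± 0.19 (adjusted p = 0.827) and Anxa8 with 0.28 ± 0.11 (adjusted p = 0.895).

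**Figure D4:**
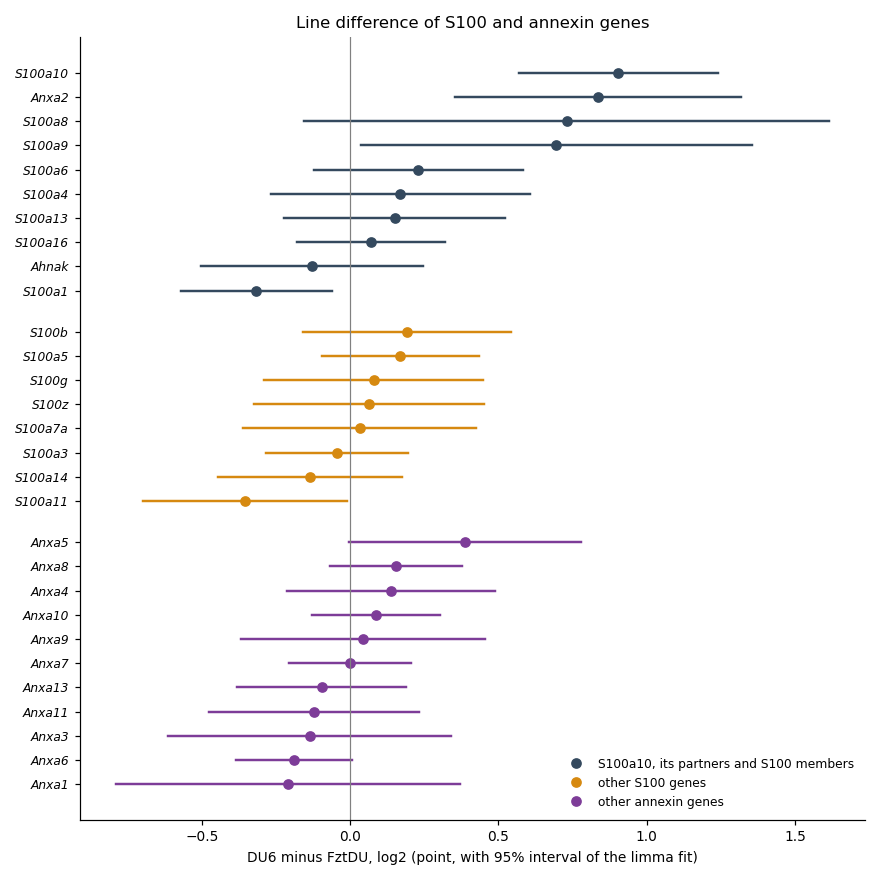
Difference between the lines, DU6 minus FztDU on the log2 scale (horizontal axis), with its 95% interval, for the 10 genes, 8 other S100 genes and 11 other annexin genes (rows). S100a10, at 0.90, and Anxa2, at 0.84, have the highest values, and among the other S100 and annexin genes the values run from -0.35 to 0.39.

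All 8 S100 genes of the set lie on chromosome 3. Those from S100a1 to S100a9 lie within 185 kb, and S100a10 lies apart from them, its annotated start 3044 kb from that of S100a1 (mm10). The stretch that holds them, with a flank on each side (mm10, chr3:90385233-93797510), had 82 clusters. Among the 74 clusters other than the S100 genes of the set, differences ran from -0.35 to 0.29, with a median of -0.03, and 0 reached an adjusted p under 0.05. An unadjusted p under 0.05 was reached by 2 of them, both with the lower mean in DU6, as by 3.17% of all clusters. How many of the 74 were expressed was not counted, and a gene that is not expressed cannot show a difference. S100a10 and S100a11 are neighbours, with annotated starts 34.6 kb apart, and their differences were 0.90 and -0.35. The neighbour of S100a10 on the other side, Tdpoz2, differed by -0.05 (adjusted p = 0.994). It was called expressed in neither line, with log2 signals of 1.43 to 2.40, so its difference says little. S100a11, which was called expressed in both lines, had the lower mean in DU6. S100a9 has S100a8 (0.73) on one side and Pglyrp4, whose product binds bacterial cell walls, on the other, which differed by -0.08 (adjusted p = 0.994). S100a1 has S100a13 (0.15) and Chtop, which acts in RNA export, beside it, and Chtop differed by 0.06 (adjusted p = 0.994).

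**Figure D5:**
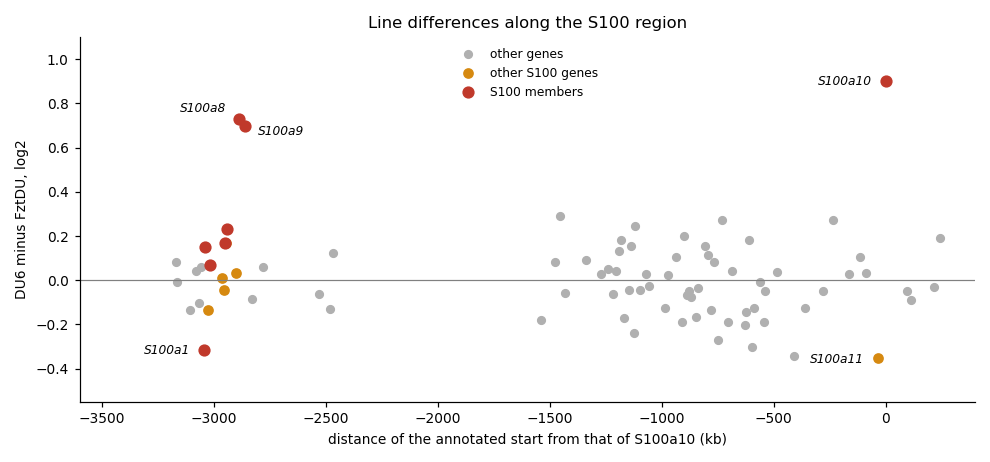
Difference between the lines, DU6 minus FztDU on the log2 scale (vertical axis), against the distance of each annotated start from that of S100a10 in kb (horizontal axis), for the 82 clusters of the stretch. S100a10, at 0.90, and S100a8 and S100a9, at 0.73 and 0.70, stand above all other clusters, and S100a11, beside S100a10, lies at -0.35.

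Genes whose deviations from the line mean were most like those of S100a10 were looked for among 16603 clusters with 1 named gene that was expressed in at least 1 line, by Pearson's r over the 10 arrays. The 5 highest were Tomm22 (r = 0.95), a receptor of the mitochondrial import pore, Cnnm4 (0.95), a magnesium transporter, Pnpla3 (0.94), a lipid droplet lipase, Lysmd4 (0.92) and Zdhhc14 (0.91), which attaches palmitate to proteins. For S100a8 they were Scnn1g (0.97), a subunit of an epithelial sodium channel, Gnmt (0.97), a methyltransferase, Ebf1 (0.96), a transcription factor, Aqp6 (0.96), a water channel, and Scx (0.96), a transcription factor of tendons. These values are the highest of a long search over 10 arrays and are a description only. All 5 genes of the S100a8 group were highest in DU6 replicate 2. There Ebf1 had a log2 signal of 8.73, against 6.12 to 6.97 in the other DU6 arrays and 6.07 to 6.68 in FztDU arrays. Without that array r lay between 0.83 and 0.92 for the 5. For S100a10, r without the same array lay between 0.88 and 0.94. Anxa2 was among neither group.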

How the data were processed

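Total RNA of whole hippocampi from 5 DU6 and 5 FztDU mice was hybridized to Clariom S Mouse arrays. The methods name SST-RMA in the Transcriptome Analysis Console as the normalization and mm10 as the annotation. Log2 values of each cluster in each array are what the authors deposited, and they were used unchanged. Their comparison table also holds averages, fold changes and p-values, which were not used. The averages lie on a wider log2 scale than the values per array, and the sources used here do not state which step parts them, so folds given here hold only for the scale of the single arrays. From that table came symbols, positions (other deposited columns, start and stop) and calls of expression.

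Differences were fitted over all 22206 clusters with limma 3.58.1 in R 4.3.3 (lmFit, eBayes, two-sided, Benjamini-Hochberg), line as the only term and no filter. Calls needed an adjusted p under 0.05 together with a fold change over 2, the methods' thresholds, here applied to the values per array. On their scale a fold of 2 is not the same rule as on that of the averages, so counts cannot be set beside the paper's. On simulated data, 97% of changes of 1.5 and 100% of changes of 3 on the log2 scale were recovered among the 22206 clusters. Smaller changes, such as those of the 10 genes, were not simulated, so their rate of recovery is not known. Precision is limited by the number of arrays, which have no read depth. Named genes are the 10 genes, the 3 of each of 4 lists with the smallest p, the 5 most like S100a10 and S100a8, up to 2 markers of each list, and chromosomal neighbours. Htr1b, Plat, Plg, Tlr4 and Ager were named outside this rule, after their values were seen. S100a2 and the neutrophil markers Mmp8, Mpo, Camp and Ltf were also named outside the rule. The 10 genes and all lists were chosen with earlier results of these data known. Marker lists covered choroid plexus, meningeal fibroblasts, ependyma, endothelium and mural cells, neutrophils, red cells, microglia, astrocytes, oligodendrocytes, hippocampal neurons and cerebellum. Promoter sequences are from RefSeq (GRCm38.p6). Alternatives were other normalizations, filters, moderation, array weights, a replicate block, thresholds and sets of arrays. Figures used Python 3.11.15 and matplotlib 3.10.9.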

Additional observations from a re-analysis of the deposited data

Results flagged for a closer look

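In 44 groups of 5 arrays, 4 had 1 array far from the other 4 (a gap to the nearest array above 0.71 of the range of the group), and chance gives about 1 in 20 groups. Anxa2 had a log2 signal of 3.64 in FztDU replicate 3, against 4.50 to 4.78 in the other FztDU arrays, and its difference between the lines was 0.63 without that array, against 0.84 with it. S100b had 8.47 in DU6 replicate 2, the array with high cerebellar genes, against 7.53 to 7.80 in the other DU6 arrays, and its difference between the lines was 0.03 without that array, against 0.19 with it. S100b also had 7.92 in FztDU replicate 5, against 7.57 to 7.59 in the other FztDU arrays. Ngp had 2.33 in FztDU replicate 5, against 2.90 to 3.11 in the other FztDU arrays. What set these arrays apart was not tested.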

How the results depend on the processing

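The count of clusters called over all genes was 25 and lay between 23 and 28 when each array was left out in turn. It was 16 with the lowest 50% of clusters left out, 51 where the unadjusted p was under 0.05 and the fold change over 2 and 1302 at an unadjusted p under 0.05 alone. Of the 10 genes, 0 were called, and 0 or 1 when each array was left out, the 1 being S100a10 without FztDU replicate 3. At the adjusted p alone 1 of them passed, and at an unadjusted p alone 4. The count at the adjusted p alone, taken under further settings chosen after seeing the data, was 0 with array weights, in the replicate block fit, on the 7 arrays without high choroid plexus genes and on the 6 that also lack DU6 replicate 2, and was 0 or 1 when each array was left out, the 1 again without FztDU replicate 3. S100a10 thus kept its difference, 0.81 to 1.04, but lost its adjusted p under 0.05 in 9 of the 10 fits with 1 array less. At an unadjusted p alone, 1 other S100 gene, 1 p11 partner gene and 3 receptor and myeloid genes passed, 1 of the 3 with the fold threshold, and 0 genes of the 4 lists were called when any array was left out. The difference of S100a9 was -0.03 on the 6 arrays. S100a8 was removed by the filter on the lowest 25%, and Anxa2, S100a1, S100a4, S100a6, S100a8 and S100a9 by that on the lowest 50%, so they have no value there. Among pairs of genes, 1 of 7 passed, also with each array left out. In the replicate block fit 2 passed, where S100a8 and S100a9 gave r = 0.85, but the permutation test does not hold there. In that fit the 2 arrays of a replicate number mirror each other. The 10 values are thus 5 values and their negatives, while the test took them as 10. On the 7 or the 6 arrays 0 passed, where S100a1 and S100a13 gave r = 0.92 and 0.93 but few rearrangements exist. Other values changed sign between settings. The difference of S100a13 was -0.10 on the 7 arrays and -0.06 on the 6, that of S100a4 was -0.08 on the 7 arrays and -0.01 without FztDU replicate 5, and that of S100a8 was -0.03 on the 6. S100a10 and Ahnak gave r = -0.0018 with arrays centred on their medians, -0.14 in the replicate block fit and -0.11 to 0.18 with each array left out. Anxa2 and Ahnak gave 0.65 in the replicate block fit and -0.27 to 0.059 with each array left out. S100a6 and Anxa2 gave 0.25 in the replicate block fit, 0.028 on the 7 arrays and 0.12 on the 6. S100a4 and Anxa2 gave 0.10 on the 6 arrays and -0.43 to 0.057 with each array left out. S100a8 and S100a9 gave -0.39 on the 6 arrays. The cause was not tested. The replicate numbers were not shown to pair the arrays, as 3 of 5 pairs of the same number had r over 0.1, with a mean r of 0.10, against -0.03 between arrays of unlike number.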
